A study of Homo sapiens with 6 samples.

Results

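Gene-desert bins are the 100 Kb bins of the autosomes that lie far from every protein-coding gene. A bin was counted as one when it had a compartment score in all 6 libraries and when no protein-coding gene of the GENCODE annotation started in it or in the 10 bins on either side of it, a window of 2.1 Mb in all. Of 26484 autosomal bins with a score in all 6 libraries, 926 (3.5%) met this rule. They lay on 20 of the 22 autosomes, with none on chromosomes 17 and 22, and formed 111 deserts, which are runs of adjacent bins beyond the reach of any start. The median desert held 7 scored bins, and 65 deserts held 5 or more. A further 1610 bins met the distance rule but had no score, and 1599 of these were unsequenced (all N) in GRCh37, so the 3 longest stretches by distance alone, on chromosomes 1, 15 and 13, held 2, 0 and 0 scored bins. The nearest protein-coding start was 11 to 27 bins away, with a median of 13. The name holds for protein-coding starts only, since 222 of the 926 bins held the start of a lncRNA gene and 83 overlapped the body of a protein-coding gene that started elsewhere.

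T47D is a cell line of luminal breast cancer that expresses the estrogen receptor. The parental cells went without hormone for 72 h and were then taken either before E2 (β-estradiol, T0) or 1, 4, 16 and 24 h into treatment with E2 at 100 nM (T1, T4, T16, T24), and the sixth library came from tamoxifen-resistant T47D cells (TamR), which the labels give as untreated and the methods of the study as cultured with 100 nM tamoxifen. Tethered chromatin capture (TCC), a form of Hi-C with ligation on a solid surface, is deposited as 1 track per condition, so that differences between conditions have no replicate error and were not tested. The deposited value is the first eigenvector of the contact matrix per bin. Bins with a score above 0 make up compartment A, the active chromatin, and bins below 0 compartment B, the inactive chromatin. The squared scores of a library sum to 0.998 to 0.999, so a score has a size only against other scores of the same library; scores are printed multiplied by 1000, and the percentile rank of a bin among the scored autosomal bins was used between libraries. Contact counts were not at hand, and the depth of the libraries is unknown.

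Gene deserts are stretches of the genome in which no protein-coding gene starts over long distances. They tend to be rich in A and T, to replicate late in S phase and to lie at the nuclear lamina, and in Hi-C maps they are typical members of compartment B. Some border genes for developmental regulators or cell adhesion and hold distal enhancers of these genes, while others hold no known element.

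TCC reads a desert only where HindIII cuts it, and the reads are mapped beside the cut. The most central HindIII site of each of 4 regions that the results return to is therefore shown with 50 bases on either side. All are read 5′ to 3′ on the plus strand of GRCh37 (hg19). The capitals mark the site AAGCTT, which reads the same on both strands. The first region is the longest desert by scored bins, and the second is the desert with the most bins in A at T0. The third is the run of desert bins in A in every library, and the last is the longest run in A only in TamR. For these runs the site is the most central of the run, not of the whole desert.
PCDH7 to ARAP2, chr4:33498708-33498813: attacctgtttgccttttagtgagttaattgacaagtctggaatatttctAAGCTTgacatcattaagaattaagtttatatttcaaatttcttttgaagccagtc
NUDT12 to EFNA5, chr5:104952730-104952835: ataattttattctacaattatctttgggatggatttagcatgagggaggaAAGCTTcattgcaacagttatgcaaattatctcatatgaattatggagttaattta
immunoglobulin heavy chain end of chromosome 14, chr14:107153410-107153515: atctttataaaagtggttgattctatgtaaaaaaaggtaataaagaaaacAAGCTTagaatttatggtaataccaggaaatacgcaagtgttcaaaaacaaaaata
FAM98A to CRIM1, chr2:35252973-35253078: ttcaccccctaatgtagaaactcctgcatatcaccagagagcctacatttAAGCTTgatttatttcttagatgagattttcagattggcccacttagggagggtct

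The GC content of these windows of 106 bases was 29.2%, 29.2%, 25.5% and 41.5%. Windows of the same length held the site in 3.22% of cases in gene-desert bins and in 2.91% in all scored autosomal bins. Deserts were thus not short of sites, with a median of 31 per 100 Kb bin, against 31 in bins with a protein-coding start within 10 bins (near bins) and 27 in bins that hold one (start bins).

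Few gene-desert bins were in A. At T0, 48 of the 926 bins (5.18%, 95% Wilson interval 3.93 to 6.81%) had a positive score, and the share was 3.46%, 4.54%, 3.89% and 3.02% over the E2 time points from T1 to T24 and 2.7% in TamR. Near bins were in A in 31.5 to 35.7% of cases over the 6 libraries and start bins in 69.0 to 72.1%. The share in A at T0 was lower in deserts than in the rest of the same chromosome on 20 of 20 chromosomes, and in TamR on 19 of 20. Chromosomes 15 and 20 held only 1 gene-desert bin each, and the exception in TamR was the bin of chromosome 20. Bins of a desert move together, and the intervals, which cover counting of bins only, are too narrow.

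The desert with the most bins in A, between NUDT12 and EFNA5 on chromosome 5, weighed on these shares, as the plot of shares by library shows. Without its 21 bins the share in A was 2.98%, 1.33%, 2.43%, 1.77% and 1.22% from T0 to T24 and 2.76% in TamR. Outside this desert 27 bins were in A at T0 and 25 in TamR. When each desert was counted once by the mean of its scored bins, 3 of 111 deserts were in A at T0 and 7 in TamR, the opposite order.

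**Figure D1:**
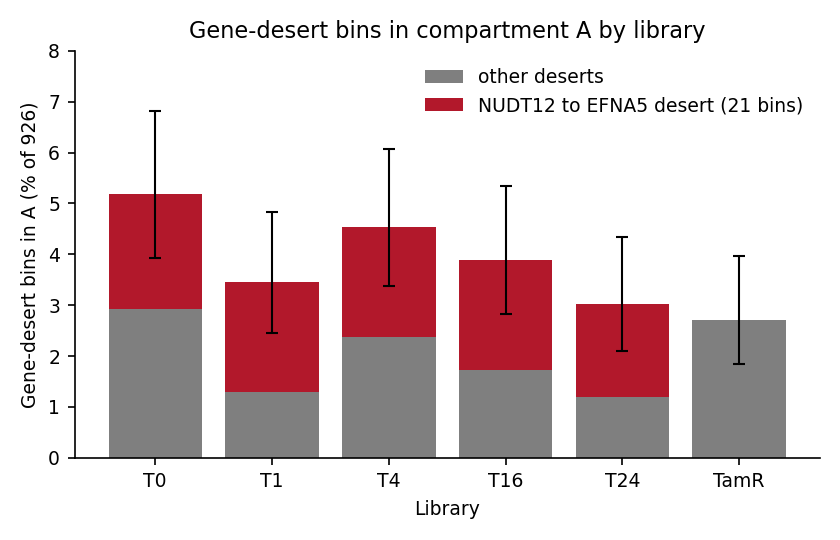
Share of the 926 gene-desert bins in compartment A in each library (bars from 0, in %), with the NUDT12 to EFNA5 desert in red, all other deserts in grey, and 95% Wilson intervals over bins for the sum. The red part is 21 bins at T0, 17 at T24 and 0 in TamR.

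The share in A fell with distance from a gene start and was low before the desert rule began. At T0 it was 71.6% of bins that held a start, 46.0% of bins 1 to 2 bins away, 16.5% at 3 to 5 bins and 7.32% at 6 to 10 bins. Among gene-desert bins it was 4.79% at 11 to 12 bins, 4.38% at 13 to 15, 7.25% at 16 to 19 and 5.17% at 20 or more bins, with intervals that overlapped. In TamR the share was 5.35% at 11 to 12 bins and 1.88% at 13 to 15 bins, and no bin was in A among the 193 at 16 to 19 bins (up to 1.95% by the Wilson interval) or among the 58 farther away (up to 6.21%). All 17 bins beyond 15 bins that were in A at T0 were thus in B in TamR, most of them in the NUDT12 to EFNA5 desert.

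**Figure D2:**
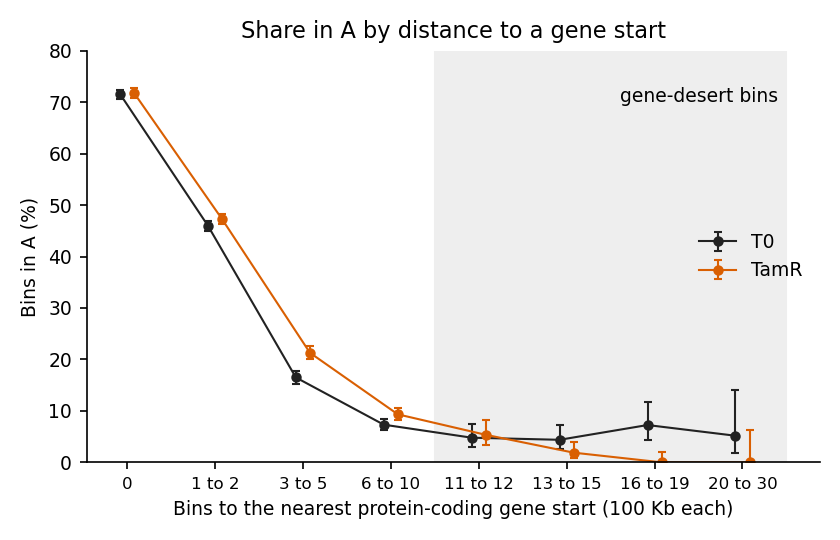
Share of scored autosomal bins in A (%) against the distance to the nearest protein-coding gene start in bins of 100 Kb, at T0 (black) and in TamR (orange), with 95% Wilson intervals over bins. Gene-desert bins lie in the grey area, where the share stays between 0 and 7.25%.

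Gene-desert bins were low in rank without being uniformly at the bottom. Their median percentile rank was 19.9, 19.6, 20.1, 20.2 and 21.7 from T0 to T24 and 20.1 in TamR, while near bins had medians of 37.8 to 38.3 and start bins of 70.8 to 71.5. In score units the median was −6.0 at T0 and −5.92 in TamR. Of the 926 bins, 864 (93.3%) lay below the median of all scored bins at T0 and 899 (97.1%) in TamR, and 246 (26.6%) were in the lowest 10% of all bins by the mean of the 5 parental libraries, of which they made up 9.29%. The upper part of their distribution drew in most: the 90th percentile of their ranks was 45.6 at T0, 46.2 at T24 and 38 in TamR.

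Base composition set deserts apart from the rest. The median GC content was 35.2% in gene-desert bins, 38.6% in near bins and 42.7% in start bins. The 73 gene-desert bins in A in any library had a median of 35%, against 35.2% for the 853 bins in B in all 6. Without the NUDT12 to EFNA5 desert the former was 35.4%. The median was 34.8% for the 48 bins in A at T0 and 36.1% for the 25 in A in TamR, with an upper quartile of 41.0% in the latter. Within 1 range of GC content, from 38 to 60%, 4 of 70 gene-desert bins were in A at T0 (5.71%), against 49.2% of near bins and 78.6% of start bins. At 34 to 35% GC the shares were 7.12%, 4.66% and 4.11%. Most of the 20 gene-desert bins behind the 7.12% belonged to the NUDT12 to EFNA5 desert. In TamR 10 of the 70 gene-desert bins at 38 to 60% GC were in A (14.3%), 7 of them in 2 runs on chromosome 14, against 0 to 3.56% in the ranges of lower GC. The bins with a lncRNA start were in A in 4.05% of cases at T0, and the bins without one in 5.54%. None of the 83 bins that overlap the body of a protein-coding gene was in A in a parental library, and 3 were in TamR.

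The 3 deserts with the most scored bins stayed in B throughout. The desert between PCDH7, a protocadherin, and ARAP2, a regulator of Arf GTPases (chr4:31800001-35200000, 34 bins, 12 lncRNA starts with LINC02506, LINC02353 and LINC02484 among them), had mean scores of −5.78, −5.89, −5.75, −5.82 and −5.37 from T0 to T24 and −4.81 in TamR. The desert between RAG2, part of the V(D)J recombinase, and LRRC4C, a netrin-G ligand (chr11:37700001-40400000, 27 bins), had −5.48 at T0, −5.43 at T24 and −5.91 in TamR. The desert between AGA, a lysosomal amidase, and TENM3, a teneurin (chr4:179400001-182000000, 26 bins), had −6.57, −6.52 and −6.83. None of the 87 bins reached A, and the bin closest to it scored −0.76, in the PCDH7 to ARAP2 desert in TamR.

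The 3 lowest deserts of 5 or more bins were picked by the mean score of the parental libraries. Between CDH2 (N-cadherin) and DSC3 (desmocollin 3), 8 bins at chr18:26800001-27600000 had a mean score of −8.64 at T0, −7.55 at T24 and −8.39 in TamR, or mean ranks of 1.60, 4.34 and 5.27. Between CDH9 and CDH6 (chr5:28200001-30100000, 19 bins) the mean was −8.03 at T0, −7.13 at T24 and −6.41 in TamR, and the mean rank rose from 5.40 over the parental libraries to 16.9. Between KHDRBS3, an RNA-binding protein, and FAM135B (chr8:137500001-138500000, 10 bins) it was −7.77, −7.21 and −7.38.

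Of 13 adhesion genes listed as known neighbours of deserts (cadherins, protocadherins and SLITRK genes), 12 bordered a desert, and their 14 deserts held 180 of the 926 bins. In these, 11 bins were in A at T0, 3 at T1, 7 at T4 and T16, 2 at T24 and 0 in TamR. The share at T0 was 6.11%, near the 5.18% of all gene-desert bins, and at T24 it was 1.11%, against 3.02%. All 11 lay beside PCDH7 (6 bins) or PCDH9 (5 bins). NR2F1, an orphan nuclear receptor gene from a like list of transcription factor and signalling genes, bordered a desert of 2 scored bins that were in B in every library. The bins that hold the starts of the adhesion genes were themselves in B, apart from 1 at T4, and of the 205 start bins that flank the deserts 11.7% were in A at T0 and 14.6% in TamR, far below start bins at large.

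The exceptions in A were few and clustered. In all, 73 bins (7.88%) in 19 deserts were in A in at least 1 library, 56 of them in 12 deserts in a parental library. The other 92 deserts held no bin in A in any library. A single run of 3 bins was in A in all 6 libraries (0.324% of gene-desert bins, against 25.3% of near bins and 63.7% of start bins), and 853 bins (92.1%) were in B in all 6. The heat map of the exceptions shows, beside this run, deserts in A only in the parental cells, with NUDT12 to EFNA5 and SEMA6A to DTWD2 among them, deserts in A only or mostly in TamR, and bins near the border that changed sign from library to library.

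**Figure D3:**
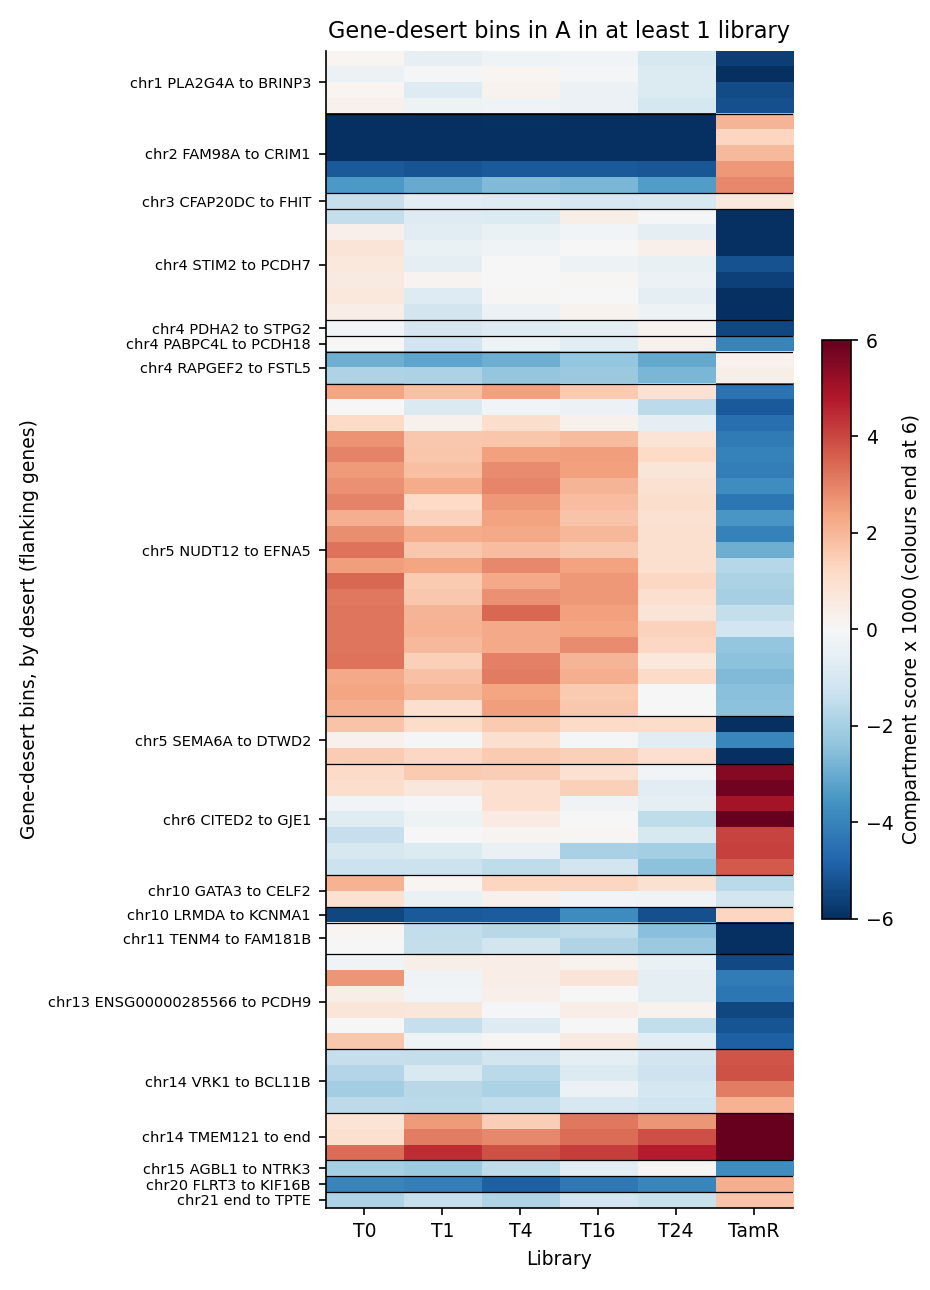
Score (x 1000, colour, red for A and blue for B) of the 73 gene-desert bins in A in at least 1 of the 6 libraries, 1 row per bin, grouped by desert and named by the nearest protein-coding genes. The 21 bins of the NUDT12 to EFNA5 desert are red at T0 and blue in TamR, and the 5 bins of the FAM98A to CRIM1 desert are the reverse.

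The run in A in all 6 libraries was chr14:107000001-107300000, at the end of the chromosome. It holds the distal end of the immunoglobulin heavy chain locus, with 50 immunoglobulin gene segments and segment pseudogenes that the annotation does not type as protein-coding, and its window runs past the chromosome end. The nearest protein-coding start is that of TMEM121. The mean score of its bins was 1.70, 3.35, 2.73, 3.55 and 3.74 from T0 to T24 and 8.50 in TamR, where all 3 bins were above every parental value. At T0 these bins and their neighbour formed an A run of 0.4 Mb of their own. At T1, T4, T16 and T24 they were joined to a run of 8.10 Mb with 76 protein-coding starts, and in TamR to one of 8.4 Mb. When starts of immunoglobulin and T cell receptor segments were counted as gene starts, or bins near chromosome ends were left out, no gene-desert bin was in A in all 6 libraries.

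The desert between NUDT12, a peroxisomal NADH pyrophosphatase, and EFNA5, which encodes ephrin-A5 (chr5:103900001-106000000), was the only one of 10 or more bins with all scored bins in A in any library. All 21 bins were in A at T0, 20 at T1, T4 and T16, 17 at T24 and 0 in TamR. The mean score was 2.60, 1.56, 2.35, 1.91 and 0.70 from T0 to T24 and −3.13 in TamR. In each of the 21 bins the rank in TamR was below all 5 parental ranks. Over the bins the highest score in TamR was −1.16, and the lowest was 0.04 at T0 and −1.56 at T24. The mean rank went from 66.2 at T0 to 58.8 at T24 and 35.4 in TamR. Its GC content was 34.4% and its median number of HindIII sites 32 per bin, close to the medians of all gene-desert bins (35.2% and 31), and 3 lncRNA genes started in it. The change did not stop at the borders of the desert. At T0 the desert was part of an A run of 5.6 Mb, from PAM to EFNA5, and none of the other 35 bins of that run, 5 with a gene start, was in A in TamR.

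The remaining exceptions of the parental cells were shorter, and most of them scored closer to 0. Between STIM2, a calcium sensor of the endoplasmic reticulum, and PCDH7 (chr4:27900001-29700000, 18 bins), 6 bins were in A at T0, the highest score being 0.78, 1 at T1, 3 at T4 and T16 and 1 at T24. Between PCDH9 and the predicted gene ENSG00000285566 on chromosome 13 (chr13:65500001-66800000, 13 bins), 5 bins were in A at T0, with a highest score of 2.63. Between SEMA6A, a semaphorin, and DTWD2 (chr5:117000001-117300000), all 3 bins were in A at T0 and at T4, 2 of them in every parental library, and all were between −3.93 and −7.13 in TamR. Between GATA3, the transcription factor of luminal breast cells, and CELF2, an RNA-binding protein, the bin chr10:9100001-9200000 scored 2.07, 0.11, 1.27, 1.29 and 0.92 from T0 to T24 and −1.64 in TamR. At T0 this bin and the next one, which scored 0.93, were the last of an A run of 1.50 Mb that included the start of GATA3, and none of the other 13 bins of that run was in A in TamR. At T0 the SEMA6A, GATA3 and NUDT12 exceptions thus continued an A run beyond the desert, while those beside PCDH7 and PCDH9 began and ended inside it.

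Over the E2 course most gene-desert bins kept their compartment. All 5 parental libraries placed 870 bins (94.0%) in B and 23 (2.48%) in A. Bins that left the T0 compartment at 1 to 3 of the E2 time points, called miscellaneous, were 26, or 2.81% (1.92 to 4.08%), against 5.62% of all scored autosomal bins. The A to B trend at all 4 E2 time points held 7 bins (0.756%), close to the share over all bins (0.785%), and the B to A trend held 0 bins (up to 0.413% by the Wilson interval), against 0.634%. Without the NUDT12 to EFNA5 desert the miscellaneous share was 2.54%. Gene-desert bins lay near the border less often, with 4.97% of them within 1 of 0 at T0 against 10.7% of other autosomal bins, and the part of this in the lower share of changed bins was not tested.

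At single time points 20 gene-desert bins (2.16%) had another compartment than at T0 at T1, against 3.12% of all bins, 16 (1.73%) at T4, against 3.0%, 18 (1.94%) at T16, against 3.8%, and 24 (2.59%) at T24, against 5.17%. All 4 comparisons share the T0 library, and the share of all scored autosomal bins in A was itself lower at T24 (44.8%) than at T0 (46.9%). Of the 26 miscellaneous bins, 6 were in A up to T16 and in B at T24, and 6 were in A at T0 and T4 only. The 7 bins that went to B at all 4 time points did not adjoin each other. The 3 with the largest change, by the mean of the 4 E2 time points against T0, lay at chr11:80200001-80300000 and chr11:80400001-80500000, between the teneurin gene TENM4 and FAM181B, where the scores at T0 were 0.11 and 0.01 and those at T24 −2.50 and −2.24, and at chr13:65900001-66000000, which went from 0.02 to −1.50. All 3 thus started at the border.

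Ranks gave no common direction with E2. The rank was above T0 at all 4 E2 time points in 206 bins (22.2%, against 24.0% of all bins) and below it in 232 (25.1%, against 28.7%). Of the 65 deserts with 5 or more scored bins, 14 had a mean rank above and 15 a mean rank below T0 at all 4 time points. From T0 to T24 the mean rank of a desert moved by −8.11 to 14.5 percentile points, with a median of 0.879. The extremes were the TENM4 to FAM181B desert and the desert across the centromere of chromosome 6, between PRIM2, a primase subunit, and KHDRBS2 (chr6:58200001-61900000, 6 scored bins).

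In TamR 63 gene-desert bins (6.80%, 5.35 to 8.61%) had another compartment than at T0, against 13.8% of all scored autosomal bins. From A to B went 43 bins (4.64%, against 6.22%), and from B to A went 20 (2.16%, against 7.56%). With each desert counted once the order turned, with 1.80% to B and 5.41% to A, and without the NUDT12 to EFNA5 desert 2.43% of the bins went to B. Read by starting compartment, 43 of the 48 gene-desert bins in A at T0 were in B in TamR (89.6%, 77.8 to 95.5%), whereas the share was 19.5% of near bins and 8.24% of start bins in A at T0. Of the 878 in B at T0, 20 were in A in TamR (2.28%), against 13.2% of near and 21.6% of start bins. Without the NUDT12 to EFNA5 desert 22 of 27 bins in A at T0 (81.5%, 63.3 to 91.8%) were in B in TamR. Chromosome 5 held 24 of the 48 gene-desert bins in A at T0, and all 24 were in B in TamR. The other scored bins of chromosome 5 were also in A less often in TamR than at T0. Without chromosome 5, 19 of 24 gene-desert bins in A at T0 were in B in TamR. The part of a change across chromosome 5 in the comparison with near and start bins was not tested.

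Among bins of like T0 score the shares differed in the same direction. Of 14 gene-desert bins with a T0 score of 2 to 3, all were in B in TamR, against 263 of the 1316 other autosomal bins in that range, and of 20 with a score of 0 to 1, 18 (90.0%) were, against 52.2%. From below, 3 of 26 bins with a score of −1 to 0 were in A in TamR (11.5%, against 38.1%), 4 of 138 at −4 to −2 (2.90%, against 19.5%) and 3 of 367 at −8 to −6 (0.817%, against 4.86%). The ranges above 0 hold bins from few deserts, and most bins of 2 to 3 belong to the NUDT12 to EFNA5 desert. From T0 to T24, 15 of the 20 bins with a score of 0 to 1 went to B, against 52.5% of the others. Bins picked by their T0 score can drift toward the usual score of their own group in any other library. The median rank at T0 was 19.9 in gene-desert, 37.8 in near and 71.4 in start bins. The part of such drift in these differences was not tested.

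By rank, gene-desert bins drew together in TamR. The rank in TamR was above all 5 parental ranks in 357 bins (38.6%, against 36.4% of all bins) and below them in 378 (40.8%, against 42.9%), so that neither direction prevailed. Among the 280 gene-desert bins with a mean parental rank of 30 to 70, from 53 deserts on 19 chromosomes, the rank rose in 20.7% and the median shift was −18.2 percentile points, against 39.1% and −4.06 in 6507 near bins and 46.4% and −1.10 in 3815 start bins of the same ranks. Without the NUDT12 to EFNA5 desert the median shift was −16.2. Among the 239 with a parental rank under 10 the rank rose in 73.6%, with a median shift of 5.14 points, against 3.47 in near and 5.70 in start bins. For T24 against T0 the median shift of the gene-desert bins of rank 30 to 70 was −0.240 points. Since the bins were grouped by parental rank, drift toward the usual rank of each group can enter the TamR shifts too, and its part was not tested.

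The 65 larger deserts were compared in the same way, by their mean rank. The mean rank in TamR was above the parental range in 26 deserts, below it in 29 and within it in 10, and it moved by over 10 percentile points upward in 9 and downward in 16. Of the 17 deserts with a mean parental rank of 30 or more, 14 fell, 12 of them by over 10 points, and of the 10 deserts under 10, 9 rose. Between these, 14 of 22 rose at ranks of 10 to 20 and 6 of 16 at 20 to 30. Deserts under 10 had little room to fall, and 69.5% of near bins and 79.2% of start bins under 10 rose too. These deserts were again grouped by parental rank, and the part of drift was not tested.

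**Figure D4:**
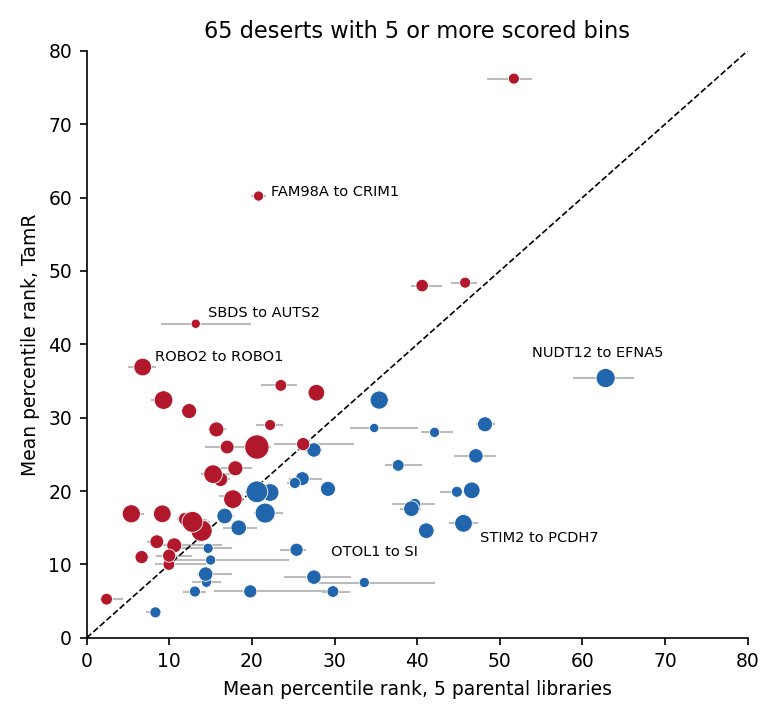
Mean percentile rank of each of the 65 deserts with 5 or more scored bins over the 5 parental libraries (x, grey bars for the range of the 5) and in TamR (y), with the point area in proportion to the number of bins, red for a rise and blue for a fall, and the dashed line for no change. Most deserts with a parental rank over 30 lie below the line, and the shifts range from −30.1 to 39.3 percentile points.

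Among bins in A in all 5 parental libraries, 20 were in B in TamR (2.16% of gene-desert bins, against 3.95% of all bins), in 5 runs on chromosomes 5 and 10. The longest was chr5:104200001-105800000, 16 bins of the NUDT12 to EFNA5 desert with mean scores of 2.90 at T0, 1.00 at T24 and −2.92 in TamR, and chr5:103900001-104000000 belonged to the same desert. The others were 2 single bins of the SEMA6A to DTWD2 desert, chr5:117000001-117100000 and chr5:117200001-117300000, with 1.70 and 1.50 at T0 and −6.58 and −7.13 in TamR, and the bin beside GATA3. Of the 23 bins in A in all 5 parental libraries only the 3 at the immunoglobulin locus remained in A.

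In the other direction 17 bins (1.84%, against 6.0%), in 8 runs, were A in TamR alone. The longest was chr2:35000001-35500000, 5 of the 6 bins between FAM98A and CRIM1, a transmembrane protein that binds BMPs. Its mean score was −5.67 at T0 and T1, −5.54 at T4, −5.44 at T16, −5.50 at T24 and 2.14 in TamR, and no parental value of the 5 bins was above −2.64. In TamR A lay on both sides of the desert. These 5 bins opened an A run of 4.30 Mb, and 22 of the other 38 bins of that run were in A at T0, while the 15 bins before the desert were in A too, parted from the run by the first desert bin at −1.15. The 4 bins at chr14:98300001-98700000, between the kinase gene VRK1 and the transcription factor gene BCL11B, went from −1.70 at T0 to 3.18, the 2 at chr6:141200001-141400000, between the transcriptional coregulator CITED2 and GJE1, from −1.13 to 3.88, and the 2 at chr4:161100001-161300000, between RAPGEF2 and FSTL5, from −2.39 to 0.30. In TamR 7 of the 9 A runs that held gene-desert bins reached past the desert, with 23 of the 25 bins. At T0 8 of 13 runs, with 17 of the 48 bins, lay within the desert. The other parental libraries varied, with 4 of 11 runs within it at T1, 3 of 10 at T4, 6 of 14 at T16 and 5 of 11 at T24. These runs held 4 of 32, 6 of 42, 6 of 36 and 20 of 28 bins.

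The largest shifts of whole deserts, chosen after their values were seen, included deserts that changed no compartment. The desert between ROBO2 and ROBO1, receptors of the SLIT axon guidance proteins whose gene bodies reach into it (chr3:77000001-78800000, 18 bins), had mean scores of −7.77, −7.87, −7.73, −7.44 and −7.08 from T0 to T24 and −2.82 in TamR. All 18 bins ranked above every parental library in TamR, and none was in A, the highest being −0.97. The desert between IGFBP7, an insulin-like growth factor binding protein, and ADGRL3, an adhesion receptor (chr4:59000001-61000000, 20 bins), rose likewise in all 20 bins, from a mean of −7.47 at T0 to −3.74.

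The falls were of like size. In the STIM2 to PCDH7 desert the mean score was −1.21, −1.65, −1.62, −1.22 and −1.37 from T0 to T24 and −6.67 in TamR, and all 18 bins fell below every parental rank. The mean rank of the 14 bins between OTOL1 and SI, the gene of sucrase-isomaltase (chr3:162300001-163700000), went from 41.1 in the parental libraries to 14.6, and that of the 16 bins between PLA2G4A, a cytosolic phospholipase A2, and BRINP3 (chr1:187800001-189400000) from 46.6 to 20.1. In the tracks across 4 deserts, TamR lay outside the parental range in every bin of each desert and in all 15 bins on its left. On the right this varied, and beside ROBO2 to ROBO1 TamR was below the parental libraries in 10 of 15 bins, the reverse of the desert. The parental libraries themselves spread in the NUDT12 to EFNA5 desert, with mean scores of 2.60 at T0 and 0.70 at T24.

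**Figure D5:**
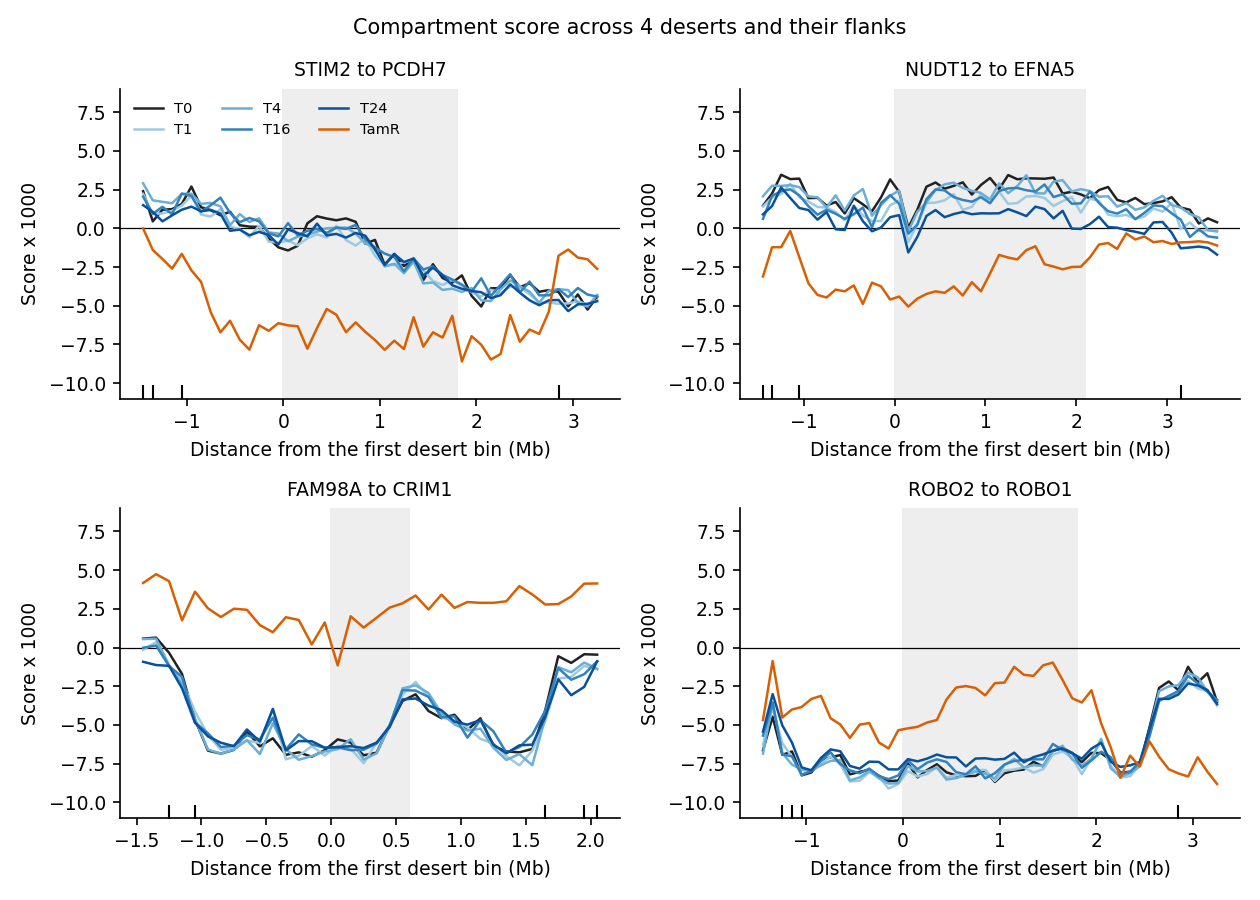
Score (x 1000) along 4 deserts (grey) with 1.5 Mb on either side, against the distance from the first desert bin in Mb, for T0 (black), T1 to T24 (light to dark blue) and TamR (orange), with ticks for bins that hold a protein-coding start. TamR runs below the parental lines in the upper panels and above them in the lower panels, throughout the grey area and on its left, and on the right in all 15 bins for FAM98A to CRIM1, 10 for each upper panel and 5 for ROBO2 to ROBO1. The other bins on the right are 10 below the parental lines for ROBO2 to ROBO1 and 5 above them for STIM2 to PCDH7. Those for NUDT12 to EFNA5 lie within the parental range.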

How the data were processed

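TCC was performed with HindIII in 6 T47D libraries. Per the study's methods, the authors aligned reads iteratively to hg19 with bowtie2, removed low-coverage bins and contacts within chromosomes, truncated the highest counts, corrected the matrix and computed the first eigenvector with HiCLib. The deposited score per 100 Kb bin is this eigenvector, 0 marks no value, and signs were used as deposited. The study pooled replicates for its MCF7 compartments and states replication in general; whether the T47D tracks pool replicates is not given in the sources used here, and their depth is unknown, so no interval for a score could be given.

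Gene starts came from GENCODE v44lift37, and GC content and HindIII sites from GRCh37, whose autosome lengths equalled those of the files. Members, lists and regions were chosen with earlier results of these data known. The regions named were the 3 longest deserts, the 3 lowest of at least 5 scored bins, runs in A in all 6 libraries, the 4 longest TamR switches per direction and the 3 longest E2 flips. Ties went to the larger score or difference. Since the longest by distance held gaps, the 3 with the most scored bins were added. No test was made with 1 deposited track per condition. Wilson intervals are at 95%. Counting was tested on simulated tracks. Python 3.11.15, numpy 2.4.6 and pandas 2.3.3 were used. Part of the list of transcription factor and signalling genes is not reported here.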

Additional observations from a re-analysis of the deposited data

How the results depend on the processing

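The scores have no depth, each condition has 1 deposited track, and the bins of a desert move together, so the 73 exceptions are in effect 19 deserts. No paired analysis was possible because no condition has a second track. Intervals over bins served as the yardstick: of 84 alternative values 49 lay within the interval of the value as reported and 35 outside it, none of which came from transcript starts, the median border, a time point left out or bodies of genes.

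With a reach of 5 bins (3017 bins), the share in A was 6.66% at T0 and 7.29% in TamR, and in all 6 libraries 2.12%. From T0 to TamR 8.85% changed, 4.11% from A to B and 4.74% from B to A. The order of T0 and TamR and that of the 2 directions thus turned. With a reach of 20 bins, 37 bins remained, with 2.70% in A at T0, 2.70% changed in TamR (all A to B) and 0% for the other quantities. With lncRNA starts counted, 12 bins remained, and all 7 quantities were 0%. Without weak scores (826 bins) the shares were 1.69% in A at T0, 1.45% in A in TamR, 0% changed over E2, and 2.66% changed in TamR, 1.45% to B and 1.21% to A. With each desert counted once, 2.70% were in A at T0 and 6.31% in TamR, 1.80% went to B and 5.41% to A. With the majority of the parental libraries as reference, 5.08% changed in TamR, 3.02% to B. Near chromosome ends left out, or immunoglobulin starts counted (chosen after seeing the data), 0% were in A in all 6 libraries. Without the NUDT12 to EFNA5 desert (chosen after seeing the data), 2.98% were in A at T0, and 4.64% changed in TamR, 2.43% to B.

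Leaving out 1 chromosome at a time, the share in A was 2.82 to 5.80% at T0 and 2.03 to 2.98% in TamR, in A in all 6 libraries 0 to 0.389%, changed over E2 3.11 to 3.99%, changed in TamR 4.58 to 7.28%, to B 2.23 to 5.19% and to A 1.71 to 2.36%. Chromosome 5 set the low ends at T0 and to B, and chromosome 14 that of A in all 6.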
